A study of Mus musculus with 40 samples.

Results

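Enteroendocrine genes were followed through all 40 libraries of the series, from sorted epithelial and stromal cells of mouse colon and colon tumors and from neutrophils and monocytes of tumors and blood. The members were 10 genes taken by symbol from the 45706 Ensembl genes of the deposited tables: the granins Chga and Chgb, the hormone genes Gcg, Pyy, Cck, Sct and Insl5, the serotonin enzyme gene Tph1 and the transcription factor genes Neurod1 and Neurog3. Their levels are given as RPKM, which scales reads by transcript length and by the mapped reads of the library and so allows genes of different length to be compared. Comparisons between groups were fitted on counts with edgeR, and a gene was called when its Benjamini-Hochberg adjusted p-value was under 0.05 and its absolute log2 fold change above 1.5.

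Enteroendocrine cells are rare hormone-secreting cells scattered through the intestinal epithelium. They arise from the secretory lineage, in which Notch signaling holds cells back from Atoh1 and Neurog3, and Neurog3 then turns on Neurod1 and further factors. Mature cells pack peptide hormones and serotonin into dense-core granules whose matrix holds chromogranins. In the colon, L cells make proglucagon peptides, peptide YY and Insl5, and enterochromaffin cells make serotonin through Tph1.

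Each of the 10 groups had 4 libraries. Tumor-bearing mice carried floxed Apc alleles (Apc fl/fl) and the Cdx2CreERT2 transgene, in which Cdx2 regulatory sequence drives a tamoxifen-dependent Cre recombinase in colon epithelium, on a mixed C57Bl6/Sv129 background, and received a single injection of tamoxifen at 25 mg/kg at an age of 8 to 10 weeks. Healthy mice were C57Bl6 with no transgene and no agent, so tumor, strain, transgene and tamoxifen cannot be told apart in any comparison of tumor with healthy cells. The label numbers of the tumor and healthy colon libraries point to different animals, whereas 2 tumor-bearing animals gave both an epithelial and a stromal library, and so did the healthy animal titled Wta, which gave replicate 4 of both healthy groups. Several blood libraries pooled 2 animals. By title, some tumor-bearing animals gave tumor or blood myeloid libraries beside their other libraries. Epithelial cells had been sorted as CD45- EpCAM+ and stromal cells as CD45- EpCAM-, so epithelial and stromal cells were separated by the EpCAM gate itself.

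Counts on genes totaled 10717873 to 38002939 per library, and mitochondrial genes took 5.34% to 83.9% of them, the highest share being in healthy epithelial replicate 4. The sorted epithelial groups carried the epithelial markers Epcam (11.6 to 80.1 RPKM in healthy, 34.5 to 81.0 RPKM in tumor cells), Krt8 and Cdh1. A list of 12 epithelial markers, taken as the median percentage of the mean in sorted epithelial cells of the same condition, stood at 0.214% to 0.337% in healthy stromal replicates 1 to 3 and at 7.59% in replicate 4. In tumor stromal replicates 1 to 4 it stood at 97.0%, 46.8%, 19.9% and 12.1%, so none of these libraries lacked epithelial transcripts. The libraries labelled tumor stromal replicates 1 and 2 also had the endothelial marker Pecam1 at 0.263 and 0.542 RPKM against 3.84 to 31.4 RPKM in healthy stromal cells, and Col1a1 was at 1.03 to 3.36 RPKM in the 4 tumor stromal against 24.2 to 188 RPKM in the 4 healthy stromal libraries. Tumor neutrophil replicate 1 stood at 76.3%, the other tumor myeloid libraries between 0.528% and 16.6%, and no blood library above 0.324%. Apc itself was at 0.343 to 3.34 RPKM in healthy and 5.97 to 6.51 RPKM in tumor epithelial cells (log2 fold change 1.13, SE 0.31, edgeR adjusted p = 0.0228, not called), but a value summed over the whole gene does not show loss of a floxed exon.

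The start-site regions of 4 of the 5 members called lower in tumor epithelium, as described below, are shown. Those of Tph1, also called lower, are not shown. Each runs from 250 bases before to 50 bases after the RefSeq start of GRCm38.p6, 5′ to 3′ on the gene's strand, with E-boxes in capitals. The E-box CANNTG, which reads the same on both strands, is the motif bound by basic helix-loop-helix factors, among them Neurod1 and Neurog3. The regions were Chga at chr12:102554691-102554990 (+), Chgb at chr2:132781392-132781691 (+), Gcg at chr2:62483604-62483903 (-) and Sct at chr7:141279084-141279383 (-).
Chga: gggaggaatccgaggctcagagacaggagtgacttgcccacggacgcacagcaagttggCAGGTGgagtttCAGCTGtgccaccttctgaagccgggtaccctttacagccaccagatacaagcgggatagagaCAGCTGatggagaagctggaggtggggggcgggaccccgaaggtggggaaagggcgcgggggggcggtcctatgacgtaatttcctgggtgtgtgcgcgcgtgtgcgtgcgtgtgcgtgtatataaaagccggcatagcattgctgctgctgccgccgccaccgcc
Chgb: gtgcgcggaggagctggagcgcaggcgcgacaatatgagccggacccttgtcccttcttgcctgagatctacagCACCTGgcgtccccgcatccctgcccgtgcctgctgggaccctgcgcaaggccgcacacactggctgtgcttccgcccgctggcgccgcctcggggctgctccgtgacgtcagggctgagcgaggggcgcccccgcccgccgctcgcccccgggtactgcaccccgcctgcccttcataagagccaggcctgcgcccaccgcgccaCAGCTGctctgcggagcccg
Gcg: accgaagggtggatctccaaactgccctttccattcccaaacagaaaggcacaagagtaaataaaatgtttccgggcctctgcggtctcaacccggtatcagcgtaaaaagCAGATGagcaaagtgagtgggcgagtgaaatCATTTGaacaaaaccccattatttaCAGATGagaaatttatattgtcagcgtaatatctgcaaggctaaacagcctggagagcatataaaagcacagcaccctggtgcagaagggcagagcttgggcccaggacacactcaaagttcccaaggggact
Sct: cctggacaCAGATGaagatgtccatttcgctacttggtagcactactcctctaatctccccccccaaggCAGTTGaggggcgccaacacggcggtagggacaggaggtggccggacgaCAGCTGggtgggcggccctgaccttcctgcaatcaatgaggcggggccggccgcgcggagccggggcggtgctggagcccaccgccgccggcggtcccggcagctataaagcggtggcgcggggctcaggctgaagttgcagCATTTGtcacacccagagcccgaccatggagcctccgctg

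The Chga and Gcg windows held 3 E-boxes each, Chgb 2 and Sct 4, whereas the Tph1 windows held 1 and 0. Over all members, 12 of 13 windows held at least 1, and the window without any was the alternative start of Tph1. The motif was common, in 72.3% of 32851 windows of this length. The CAGATG form (CATCTG on the other strand), which is 1 of the forms of CANNTG, was in 4 of 13 member windows and in 17.2% of all windows, with 2 copies in Gcg. The cyclic AMP response half-site TGACG (or CGTCA) was in 5 of 13 member windows and 20.8% of all. Chgb had 2 overlapping matches at the same place, 1 on each strand, Chga had 1, and Gcg and Sct had none. These matches describe letters in a window and were not tested as binding sites.

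Chgb had the highest level of the 10 genes in healthy colon epithelium, and both granin genes fell in tumor epithelium. Chgb, an acidic protein of the granule matrix (ENSMUSG00000027350, 132781278 to 132795079 on chromosome 2, plus strand), measured 6.80, 13.7, 30.7 and 13.3 RPKM in healthy epithelial replicates 1 to 4 and 0.885, 0.855, 1.49 and 0.901 RPKM in tumor epithelial replicates 1 to 4. Every tumor library was below every healthy one, and the mean of 1.03 ± 0.31 RPKM (SD, n = 4) was 6.41% of the healthy mean of 16.1 ± 10.2 RPKM (SD, n = 4). The edgeR fit, which scales libraries by TMM, gave a log2 fold change of -4.97 (SE 0.60, adjusted p = 0.000271). Chga, the granin used most often to mark endocrine cells (ENSMUSG00000021194, 102554969 to 102565028 on chromosome 12, plus strand), measured 0.655, 1.02, 2.41 and 0.917 RPKM in healthy and 0.00951, 0.0657, 0.104 and 0.178 RPKM in tumor epithelial libraries. Again the groups did not overlap, with 68 to 225 counts in healthy and 1 to 34 counts in tumor libraries. The log2 fold change of Chga was -4.69 (SE 0.78, adjusted p = 0.00173). In this bulk material, fewer enteroendocrine cells and less RNA per cell cannot be told apart.

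**Figure D1:**
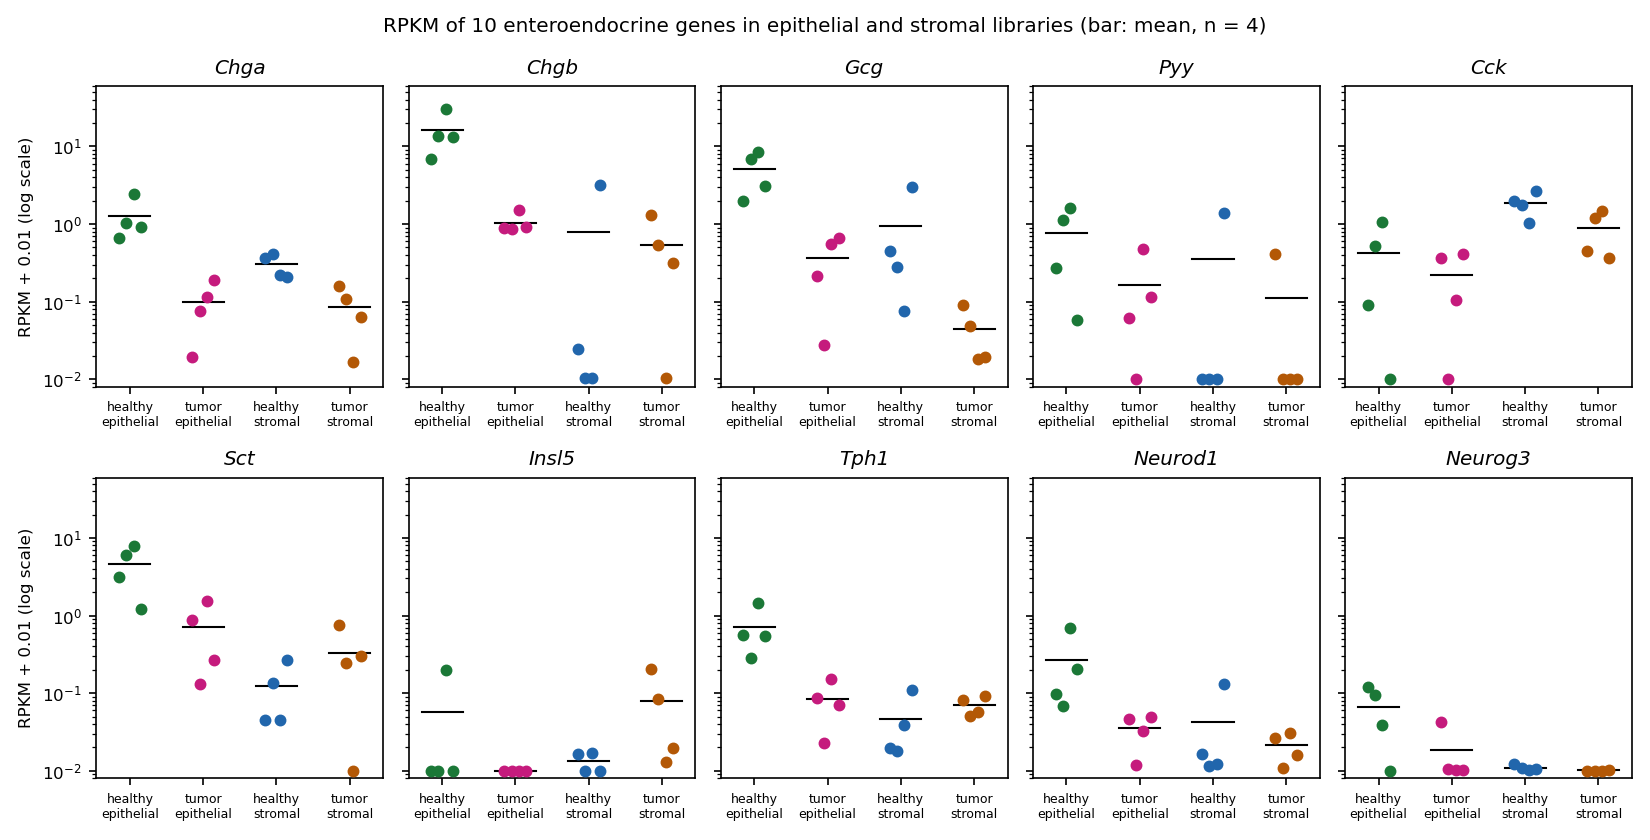
RPKM of the 10 genes (log axis, 0.01 added) in 4 groups of 4 libraries, each point a library and each bar the group mean. Tumor epithelial points of Chga, Chgb, Gcg, Tph1 and Neurod1 all lie below the healthy epithelial points, whereas Cck has its highest means in stromal cells.

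Among the hormone genes, Gcg and Sct fell while Pyy, Cck and Insl5 were too low or too variable to pass the test. Gcg, which encodes proglucagon, the precursor of the glucagon-like peptides (ENSMUSG00000000394, 62474530 to 62483650 on chromosome 2, minus strand), measured 1.99, 6.92, 8.42 and 3.08 RPKM in healthy and 0.205, 0.0181, 0.543 and 0.652 RPKM in tumor epithelial libraries. Its highest tumor library stayed below its lowest healthy library, and the log2 fold change was -4.69 (SE 0.77, adjusted p = 0.00157). Sct encodes secretin, the hormone that stimulates pancreatic bicarbonate secretion (ENSMUSG00000038580, 141278330 to 141279133 on chromosome 7, minus strand). It measured 3.15, 6.05, 7.76 and 1.19 RPKM in healthy and 0.875, 0.122, 1.51 and 0.258 RPKM in tumor epithelial libraries. The groups overlapped in RPKM through healthy replicate 4 and tumor replicate 3, and the fitted log2 fold change was -3.28 (SE 0.64, adjusted p = 0.00426). This call was lost when all 40 libraries shared 1 model (adjusted p = 0.0708).

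Pyy, encoding peptide YY, a satiety hormone of L cells, measured 0.260, 1.12, 1.58 and 0.0476 RPKM in healthy and 0.0511, 0, 0.465 and 0.105 RPKM in tumor epithelial libraries, with at most 51 counts in any of them. The groups overlapped, and the gene did not pass the filter on low counts. Cck, encoding the gallbladder-contracting hormone cholecystokinin, measured 0.0793, 0.513, 1.04 and 7.35e-05 RPKM in healthy and 0.351, 0.000236, 0.0943 and 0.399 RPKM in tumor epithelial libraries. Its log2 fold change of -1.03 (SE 1.13, adjusted p = 0.570) did not pass the test. Insl5, a relaxin-family peptide made by colonic L cells, was barely detected at all: healthy epithelial replicate 3 had 7 counts, and the other healthy and all 4 tumor epithelial libraries had 0. Its highest group mean was in tumor stromal cells (0.0698 RPKM), from 8 and 4 counts in replicates 1 and 2. At these depths 3 counts of Insl5 correspond to 0.0411 to 0.0836 RPKM in an epithelial library, so levels under that bound could not be seen.

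Tph1, the rate-limiting enzyme of serotonin synthesis outside the nervous system (ENSMUSG00000040046, 46644641 to 46672537 on chromosome 7, minus strand), measured 0.547, 0.276, 1.43 and 0.538 RPKM in healthy and 0.0775, 0.0128, 0.143 and 0.0610 RPKM in tumor epithelial libraries. The groups did not overlap, and the tumor mean was 10.6% of the healthy mean. The log2 fold change was -4.27 (SE 0.77, adjusted p = 0.00277).

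The 2 transcription factor genes were near the limit of detection. Neurod1, which keeps the endocrine program running after Neurog3 is switched off, measured 0.0889, 0.0589, 0.674 and 0.196 RPKM in healthy and 0.0367, 0.00173, 0.0223 and 0.0400 RPKM in tumor epithelial libraries. The groups did not overlap, with 10 to 79 counts in healthy and 0 to 10 counts in tumor libraries, but the gene did not pass the filter on low counts, and without that filter its log2 fold change was -4.08 (SE 1.07, edgeR adjusted p = 0.0291). Exons of Neurod1 overlap those of Cerkl on the same strand and Gm26755 on the other, so its counts are uncertain. Neurog3, the factor that commits progenitors to the endocrine fate, had 8, 8, 2 and 0 counts in healthy and 2, 0, 0 and 0 counts in tumor epithelial libraries, and it overlaps exons of Fam241b on the other strand. At this depth no difference in Neurog3 was detectable.

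Of the 10 members, 6 passed the filter for the comparison of tumor with healthy epithelial cells, and 5 of them were called lower and 0 higher. Of all 16085 genes tested, 7.88% were called lower and 7.52% higher. Members such as Chga passed the filter through the healthy group in which they were high, so this count does not stand for all 10. The median log2 fold change was -4.48 over the 6 members and -0.01 over all genes tested. Single-gene exact permutation tests of mean RPKM, 2-sided over 70 arrangements of 4 against 4 libraries, gave p = 0.0286 for Chga, Chgb, Gcg, Tph1 and Neurod1, the smallest p that such a test can reach, and p = 0.0571 for Sct. After adjustment over the 59 member and group pairs tested, the smallest adjusted p was 0.130. An adjusted p under 0.05 would have needed most of these pairs to reach 0.0286, so the adjusted values cannot decide.

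The fit was repeated without healthy epithelial replicate 4, the library with the highest mitochondrial share, and without mitochondrial genes. Without healthy epithelial replicate 4 the same fit called 5 of 7 tested members, all lower, where 1276 of 16996 genes were called lower. Without mitochondrial genes it also called 5 of 7, all lower, where 1269 of 15693 genes were called lower. Xist, the transcript of the inactive X chromosome, was at 6.68 to 34.6 RPKM in the 4 healthy epithelial libraries and at 0.0194 to 0.0413 RPKM in tumor replicates 1 to 3. Tumor replicate 4, with Xist at 46.8 RPKM, had Chga at 0.178, Chgb at 0.901 and Gcg at 0.652 RPKM. The part of sex in the member changes was not tested. Epithelial markers were lower in part as well. Of the 12, 5 were called lower (median log2 fold change -1.02), whereas Epcam (-0.63, adjusted p = 0.0339) missed the fold threshold only, and Krt8 (-0.33) and Cdh1 (-0.17) did not pass the test.

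Markers of other cells also moved between these groups. The summed level of 10 stromal markers ranged from 0.532 to 3.50 RPKM in healthy and from 8.39 to 14.2 RPKM in tumor epithelial libraries, with 5 of 9 tested genes called (3 higher, among them Cdh5 at 4.62 and Pdgfra at 3.52, and 2 lower, Dcn at -4.03 and Pdgfrb at -3.12 on the log2 scale). That of 10 leukocyte markers ranged from 2.62 to 13.0 and from 18.8 to 127 RPKM, with 2 of 8 called, both lower (Cd52 and Itgam). The median log2 fold change of these 8 was -1.57, so the higher sum does not stand for the list. Lyz2, at 2.04, did not pass the test (edgeR adjusted p = 0.121), and Ptprc stood at no more than 0.176 RPKM in any epithelial library. The summed level of 10 enteric neuron markers ranged from 0.194 to 0.718 in healthy and reached 2.35 RPKM in tumor epithelial libraries, with 3 of 4 called (Snap25 lower, Stmn2 and Tubb3 higher) and with Elavl4 at no more than 0.0209 RPKM in any epithelial library. Of the glia markers 0 of 3 were called by edgeR, limma-voom or DESeq2, with 1 that missed only the fold threshold (Erbb3, log2 fold change -1.10, adjusted p = 0.00233) and Sox10 at 0.98. Of the mast cell markers 1 of 2 was called, Hdc at 3.24, while Cpa3 was at no more than 0.0214 RPKM. The part of these cells in the member changes was not tested.

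**Figure D2:**
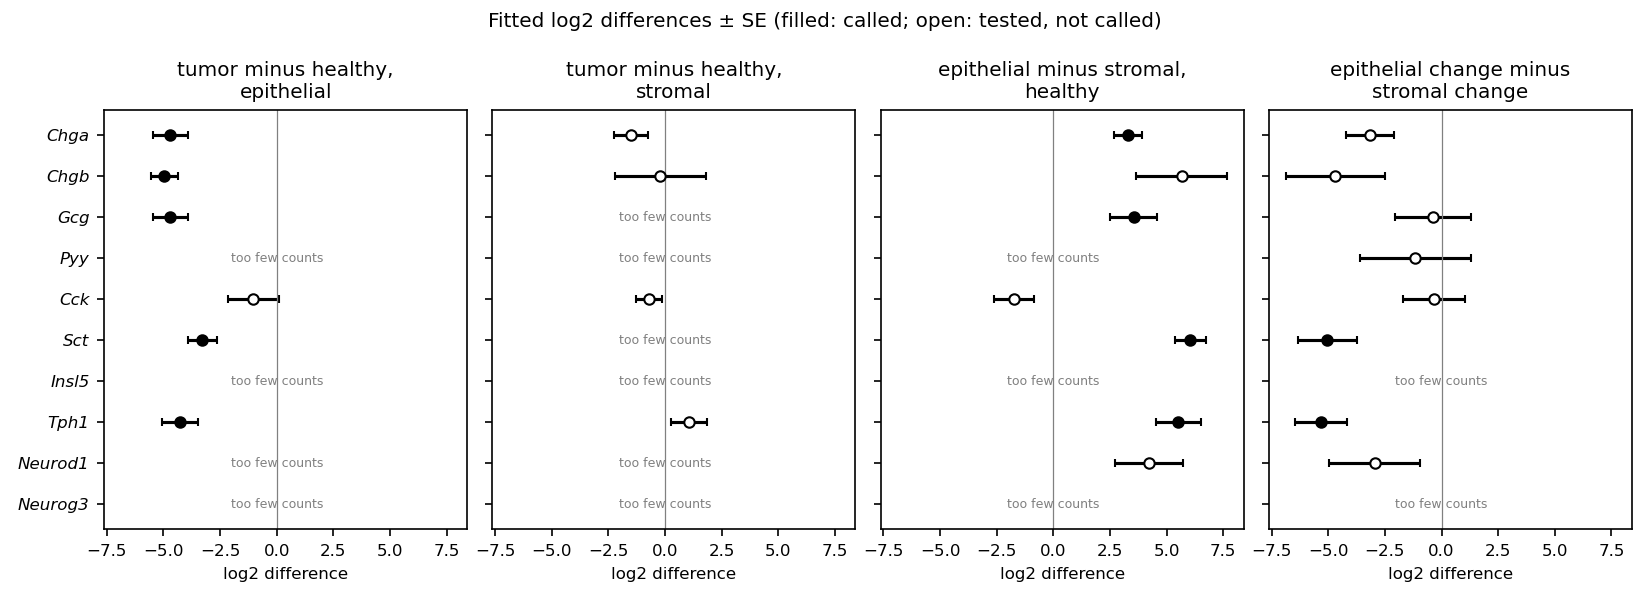
Fitted log2 differences of the 10 genes with SE in 4 comparisons of the edgeR fit, filled where called, with genes that did not pass the filter marked as having too few counts. In epithelial cells 5 genes sit between -4.97 and -3.28, while in stromal cells none was called.

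The makeup of the enteroendocrine signal was next compared in the 8 epithelial libraries. The summed RPKM of the 10 genes was 13.7 to 54.2 in healthy and 1.08 to 4.38 in tumor libraries. Chgb took 46.0% to 69.1% of that sum in healthy and 34.1% to 79.5% in tumor libraries, and was the largest contributor in 7 of the 8 on these values, with Sct just above it in tumor replicate 3. Sct took 6.15% to 23.0% in healthy and 9.96% to 34.7% in tumor libraries. Cck took at most 1.92% in healthy libraries but 13.9% and 15.4% in tumor replicates 1 and 4.

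Ratios to Chga were computed for members averaging at least 0.5 RPKM over these libraries, with 0.1 added to both values. The log2 ratio of Chgb to Chga was 3.54 ± 0.24 in healthy and 2.63 ± 0.58 in tumor libraries (SD, n = 4 each), a difference of -0.91 (exact 2-sided permutation p = 0.0286, adjusted p = 0.0857 over 3 ratios). The sign of this difference was set by the added value, since with nothing added it was 0.45 (exact permutation p = 0.714), so no change in the ratio is read from it. Those of Gcg (difference -0.86, exact permutation p = 0.143) and Sct (difference 0.09, exact permutation p = 0.943) did not differ beyond the spread of the libraries. The tumor values rest on 1 to 34 counts of Chga, and the added 0.1 exceeded Chga itself in tumor replicates 1 and 2.

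**Figure D3:**
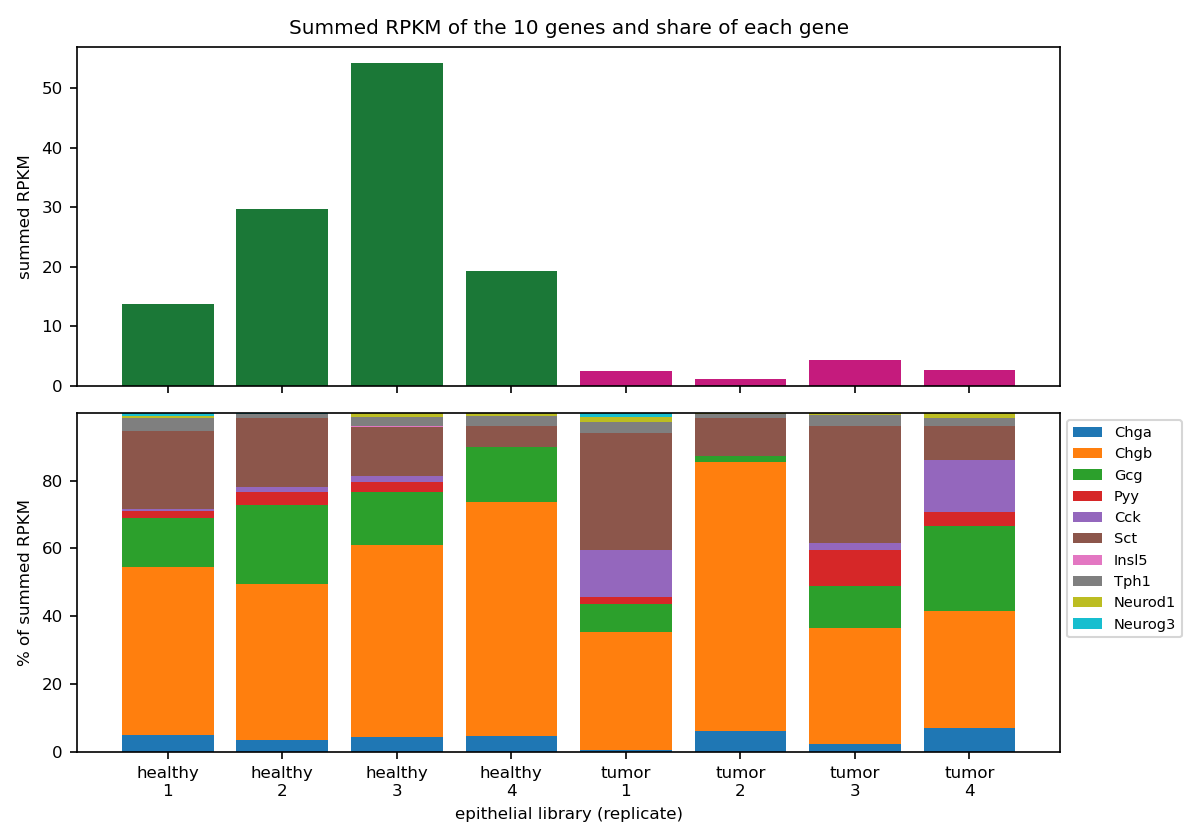
Summed RPKM of the 10 genes (upper bars) and the percentage of that sum from each gene (lower stacked bars) in the 8 epithelial libraries. The sums fall from 13.7 or more in healthy to 4.38 or less in tumor libraries, and Chgb, Gcg and Sct make up most of the sum in each library.

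In healthy colon, the same genes were then compared between epithelial and stromal cells, which served to place the signal in the epithelium. Of the 7 members tested, 4 were called higher in epithelial cells, and 0 lower, where of 18468 genes 11.5% were called higher and 30.9% in either direction. These were Sct (log2 fold change 6.05, SE 0.68, adjusted p = 0.000198), Tph1 (5.52, SE 1.00, adjusted p = 0.00213), Gcg (3.55, SE 1.04, adjusted p = 0.0232) and Chga (3.28, SE 0.62, adjusted p = 0.00263). Chgb (5.67, SE 2.01, adjusted p = 0.0510) and Neurod1 (4.23, SE 1.51, adjusted p = 0.0512) did not pass. Chgb measured 0.0143, 0.000306, 0.000385 and 3.13 RPKM in healthy stromal replicates 1 to 4, so replicate 4 alone carried it. Without that replicate Chgb (adjusted p = 0.000131) and Neurod1 (adjusted p = 0.00345) were called, whereas Gcg lost its call without healthy stromal replicate 1 (adjusted p = 0.0695) or 2 (adjusted p = 0.0690). Neurod1 was also called without healthy epithelial replicate 2 (adjusted p = 0.0453). All 7 tested members were called by limma-voom, 6 higher and Cck lower, and 6 by DESeq2, all higher. Of 18468 genes, limma-voom called 2243 higher and 4072 lower, and DESeq2 2240 higher and 3843 lower.

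Healthy stromal replicate 4 held other epithelial transcripts besides. Its Muc2, the goblet cell mucin, was at 18.8 RPKM against 0.0622 to 0.0793 RPKM in the other 3, and its Gcg at 2.96 and Pyy at 1.38 RPKM were 57.9% and 184% of the healthy epithelial means, far above its 7.59% for the epithelial list. Chga differed from Chgb in the other 3 healthy stromal libraries, with 67, 53 and 21 counts of Chga (0.360, 0.399 and 0.208 RPKM) beside 4, 0 and 0 counts of Chgb.

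Cck had a different pattern from Gcg, Sct and Pyy. It measured 1.98, 1.77, 1.02 and 2.62 RPKM in healthy stromal and 0.446, 1.19, 1.47 and 0.358 RPKM in tumor stromal libraries, which were the highest group means of the series (1.85 ± 0.66 and 0.866 ± 0.549 RPKM, SD, n = 4 each). The healthy stromal and epithelial libraries overlapped through replicate 3 of each, and the log2 difference of -1.73 (SE 0.90, edgeR adjusted p = 0.161) did not pass the test, except with limma-voom (adjusted p = 0.0387). Enteric neurons also make cholecystokinin, and the 10 neuron markers summed to 3.16 to 4.21 RPKM in healthy stromal and 1.36 to 2.90 RPKM in tumor stromal libraries, with Elavl4 at no more than 0.0159 RPKM in either; their part was not tested.

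In stromal cells no member was called between tumor and healthy mice. Of the 4 members that passed the filter, 0 were called by edgeR, limma-voom or DESeq2 and 0 had an unadjusted p under 0.05, where of 19081 genes 8.40% were called (3.39% higher and 5.01% lower). The log2 fold changes were -1.50 for Chga (SE 0.75, adjusted p = 0.252), -0.71 for Cck (adjusted p = 0.493), -0.21 for Chgb (SE 2.01, adjusted p = 0.962) and 1.07 for Tph1 (adjusted p = 0.452). In RPKM, Chga did not overlap between the groups, at 0.148, 0.0969, 0.00687 and 0.0533 in tumor stromal replicates 1 to 4 and 0.360, 0.399, 0.208 and 0.198 in healthy stromal replicates 1 to 4 (exact permutation p = 0.0286, adjusted p = 0.130). Chgb measured 1.30, 0.523, 0.000266 and 0.306 RPKM in tumor stromal replicates 1 to 4, the highest in the library with the most epithelial transcripts. Gcg was called lower (log2 fold change -4.70, adjusted p = 0.0498) without healthy stromal replicate 3, when it passed the filter.

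Whether the change from healthy to tumor differed between the sorted compartments was tested as an interaction over the 16 libraries. Of the 8 members tested, 2 were called, both lower in epithelial cells, where of 20901 genes 7.25% were called lower, 6.81% higher and 14.1% in either direction. Tph1 changed by -5.31 more in epithelial than in stromal cells on the log2 scale (SE 1.15, adjusted p = 0.00578) and Sct by -5.05 more (SE 1.31, adjusted p = 0.0163). Sct measured 0.0352, 0.125, 0.0350 and 0.254 RPKM in healthy stromal and 0.748, 0.235, 0 and 0.287 RPKM in tumor stromal libraries. Without tumor stromal replicates 1 and 2, which held the most epithelial transcripts, the Sct call was lost (adjusted p = 0.0977) and that of Tph1 was not (-5.32, adjusted p = 0.0159). Chga (-3.17, adjusted p = 0.0576) and Chgb (-4.69, adjusted p = 0.172) did not pass the edgeR test. DESeq2 called 3 members and limma-voom 2, all lower, where of 20901 genes they called 2005 and 1349 lower. Chga was called without healthy epithelial replicate 1 (adjusted p = 0.0481), tumor epithelial replicate 4 (adjusted p = 0.0421) or tumor stromal replicate 3 (adjusted p = 0.0262), and Chgb (adjusted p = 0.000652) and Neurod1 (adjusted p = 0.0270) without healthy stromal replicate 4.

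Within tumors, epithelial and stromal libraries did not differ detectably in these genes. Of the 5 members tested 0 were called by edgeR, limma-voom or DESeq2 and 0 had an unadjusted p under 0.05, beside 0.0294% of 16985 genes called, all of them lower in epithelial cells (0.00% higher). The stromal libraries held epithelial transcripts at 12.1% to 97.0% of the level in sorted tumor epithelial cells, as given above. Without tumor stromal replicates 1 and 2, Gcg passed the filter and was called higher in epithelial cells (log2 fold change 4.86, SE 1.41, edgeR adjusted p = 0.0333). With the title number as a block, only the 2 animals with both libraries informed the difference. Every other library had a block of its own, so tumor stromal replicates 1 and 2 did not enter it. That fit called 2232 genes in place of 5, but still 0 members, and it is not a paired fit of all the libraries.

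Neutrophils and monocytes of blood carried little of any member. Of 40 member values in each of these groups, 3 to 5 were above 3 counts. The main exception was Chga in tumor-bearing blood monocytes, at 0.561, 0.0140, 0.213 and 0.0167 RPKM, with 76 and 22 counts in replicates 1 and 3. Tumor neutrophils and monocytes held members in single libraries. No difference between tumor and blood cells passed the exact permutation test after adjustment, where none of the 59 pairs had an adjusted p under 0.130. An adjusted p under 0.05 would have needed most of the 59 pairs to reach the smallest possible p of 0.0286. The adjusted test could therefore hardly detect a difference, and no conclusion is drawn from it. Chga was lower in tumor than in tumor-bearing blood monocytes without overlap (means 0.00630 and 0.201 RPKM). Its exact permutation p of 0.0286 was the smallest that this test can reach (adjusted p = 0.130). The test took libraries as separate, although by title replicate 1 of tumor and of tumor-bearing blood monocytes came from the same animal. So did tumor neutrophil replicate 4 and tumor-bearing blood neutrophil replicate 2. Tumor monocyte replicate 4 and blood replicates 2 and 4 each had 2 counts of Chga. In tumor neutrophils, replicate 1 had Gcg at 2.17 RPKM from 179 counts, against at most 0.00521 RPKM in the other 3 libraries, and Pyy at 0.661 RPKM. That Gcg level was 612% of the mean in sorted tumor epithelial cells, where the epithelial list of the same library stood at 76.3% and its Chgb at 0.0267 RPKM, 2.58% of the tumor epithelial mean. Replicate 2 had Pyy at 0.514 RPKM from 20 counts with 0 counts of Chga, Chgb, Gcg and Sct. In tumor monocytes, replicate 3 had Sct at 0.583 RPKM from 18 counts, with an epithelial list level of 3.55%.

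**Figure D4:**
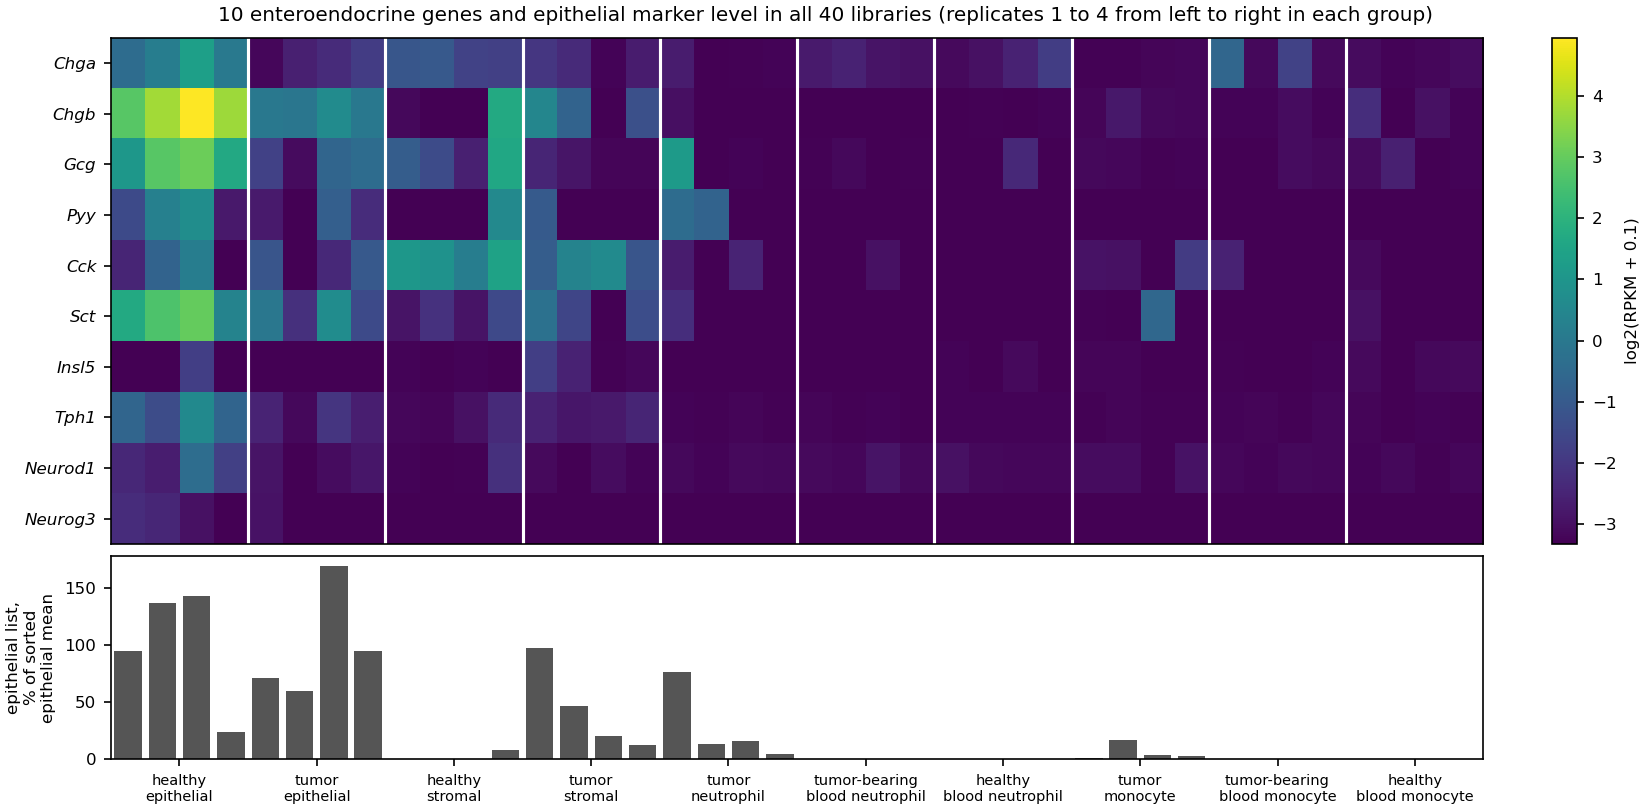
Levels of the 10 genes in all 40 libraries as log2(RPKM + 0.1) (upper panel, color), and the level of the 12 epithelial markers as a percentage of sorted epithelial cells (lower bars). Outside the healthy epithelial group, Chgb is seen in all 4 tumor epithelial libraries (0.855 to 1.49 RPKM), Chga in all 4 healthy stromal libraries (0.198 to 0.399 RPKM) and Cck in the stromal groups, while healthy stromal replicate 4 and tumor neutrophil replicate 1 hold Gcg at 2.96 and 2.17 RPKM.

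Other genes of the enteroendocrine program were described in the comparison of tumor with healthy epithelial cells, from lists written with earlier results of these data known. Among 12 other hormone and transmitter genes, 2 passed the filter and 0 were called by edgeR or limma-voom (1 by DESeq2, and 1 at an unadjusted p under 0.05). The list's highest means were those of Sst, encoding somatostatin, the inhibitory hormone of D cells, and Adm, encoding the vasodilator adrenomedullin. Sst measured 0.181, 1.03, 2.55 and 0.823 RPKM in healthy and 0.112, 0, 0.0191 and 0.0331 RPKM in tumor libraries but did not pass the filter. Adm had a log2 fold change of 0.36 and did not pass the test.

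Of 19 transcription factor genes 11 were tested, with 1 called lower and 1 higher. Atoh1, the master factor of the secretory lineage, measured 4.35, 5.68, 5.39 and 0.328 RPKM in healthy and 0.119, 0.132, 0.562 and 0.474 RPKM in tumor libraries (log2 fold change -4.02, SE 0.55, adjusted p = 0.000539). Healthy replicate 4 lay inside the tumor range. That library had 83.9% of its counts on mitochondrial genes and the epithelial list at 23.6% of the healthy epithelial mean. Sox4, a factor with a role in early endocrine progenitors and a target of Wnt signaling, rose, with a range of 0.144 to 0.666 RPKM in healthy and 2.78 to 5.57 RPKM in tumor libraries (log2 fold change 2.85, SE 0.36, adjusted p = 0.000370). The median over the 11 was -0.76.

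Of 21 genes for peptide processing and granule proteins 12 were tested, with 4 called lower and 3 higher (median -0.999). Snap25, a membrane fusion protein of vesicles and also a neuron marker, changed by -4.68 (adjusted p = 0.00360) at no more than 0.306 RPKM. Rph3al, a Rab effector of exocytosis, changed by -2.38 (adjusted p = 0.000888) and Ptprn2, a membrane protein of granules, by -2.35 (adjusted p = 0.00614). In the opposite direction, Cadps, which primes dense-core granules for release, was at 0.0796 to 0.288 RPKM in healthy and 3.73 to 4.96 RPKM in tumor libraries (log2 fold change 4.00, SE 0.48, adjusted p = 0.000256).

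Serotonin handling beyond Tph1 moved in both directions. Of 8 genes 7 were tested, with 4 called lower and 1 higher (median -2.47). The degrading enzymes Maob (-5.70, adjusted p = 0.000115) and Maoa (-4.98, adjusted p = 1.22e-05) and the reuptake transporter Slc6a4 (-5.12, adjusted p = 0.00935) fell. Maoa ranged from 4.82 to 28.3 RPKM in healthy and from 0.529 to 1.84 RPKM in tumor libraries. Slc18a1, the vesicular monoamine transporter of enterochromaffin cells, rose (1.93, adjusted p = 0.00557).

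Among nutrient and bile acid sensing genes 1 of 6 tested was called, Slc5a1, the sodium-glucose cotransporter, at -3.49 (adjusted p = 0.000338). Of 14 receptor genes for these hormones 2 were tested and both called. Glp1r, the receptor of glucagon-like peptide 1, measured 0.0113, 0.000307, 0.0530 and 0.000208 RPKM in healthy and 0.684, 2.13, 0.600 and 0.976 RPKM in tumor epithelial libraries (log2 fold change 5.80, SE 1.01, adjusted p = 0.00217). The serotonin receptor gene Htr4 fell (-3.59, adjusted p = 0.000481).

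Of 11 Notch genes 9 were tested, with 3 called higher and 1 lower. The target gene Hey1 (4.28, adjusted p = 0.000979), the ligand gene Jag2 (3.04, adjusted p = 0.0103) and the receptor gene Notch2 (1.58, adjusted p = 0.00188) rose, and Dll1, the ligand of secretory progenitors, fell (-2.24, adjusted p = 0.00747).

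Markers of other mature lineages were called lower as well. All 8 goblet cell markers were called lower (median -3.83, Clca1 at -6.84, Zg16 at -6.68, Muc2 at -4.78, Agr2 at -3.88), as were all 7 tested of 8 colonocyte markers (median -6.34, Cyp2c55 at -8.54, Slc37a2 at -7.55, Car1 at -7.44, Slc26a3 at -6.34). The called epithelial markers included Cdx2 (-3.66), Tspan8 (-3.14), Cdx1 (-2.96) and Lgals4 (-2.81). Tuft cell markers gave 0 calls of 6 by edgeR or DESeq2 and 1 by limma-voom, with 1 at an unadjusted p under 0.05 (median -1.09, Sh2d6 at -2.48 and Ptgs1 at 1.42). Of 6 stem cell markers Axin2 (2.57) and Smoc2 (1.75) were called higher and Rgmb (-2.08) lower. The medians of these lists are set beside -4.48 for the 6 tested members without a test between lists.

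**Figure D5:**
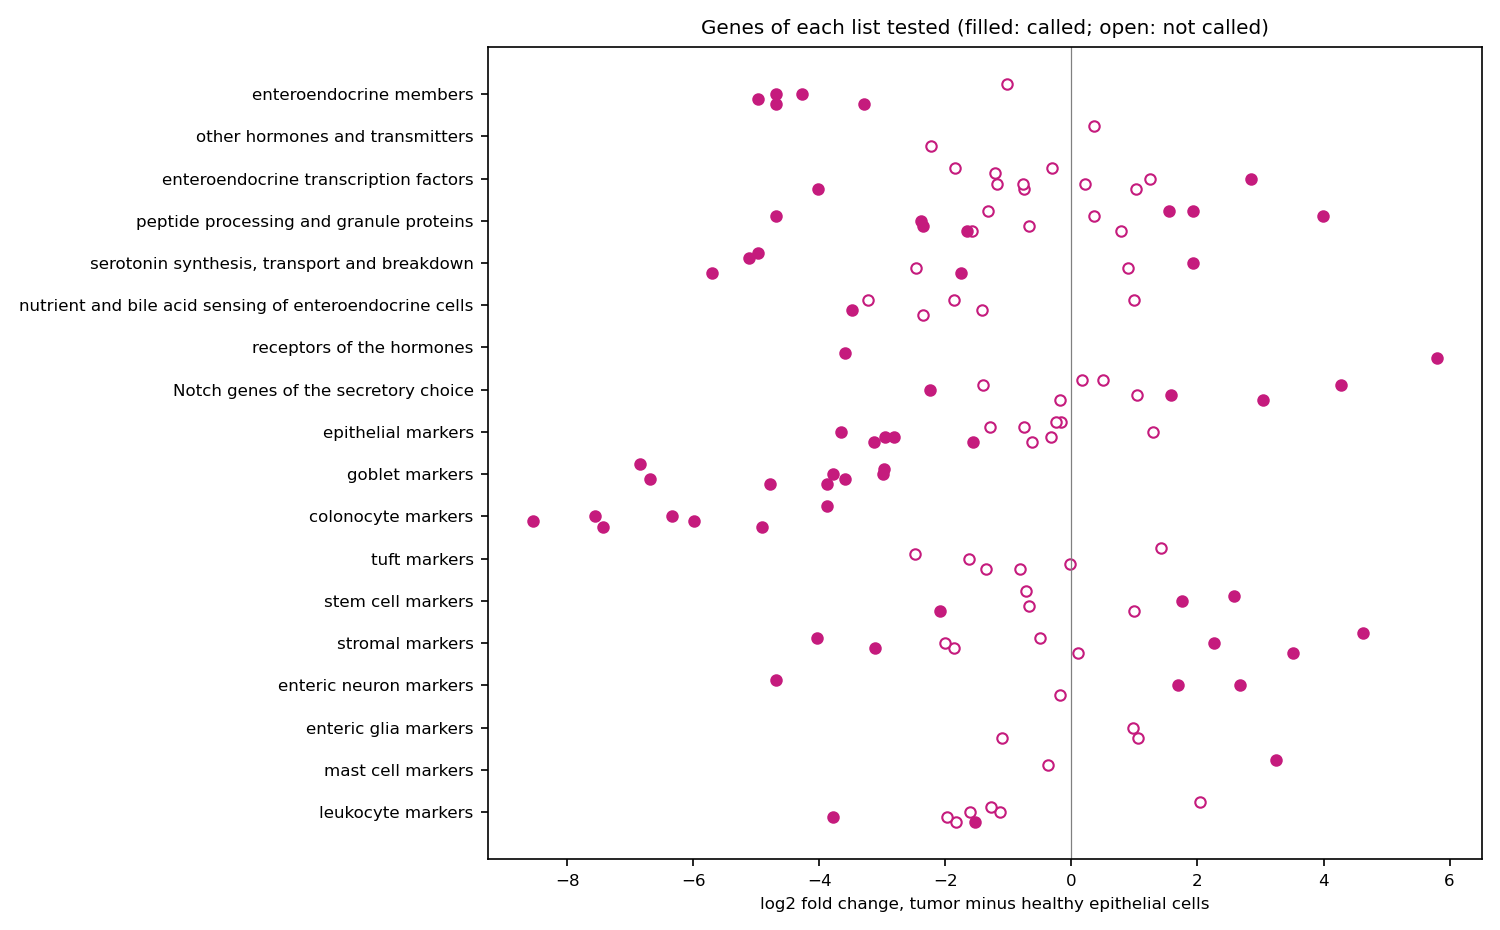
Log2 fold change of each tested gene between tumor and healthy epithelial cells by list, filled where called. Goblet and colonocyte markers and 5 of 6 tested members lie to the left, while genes of granules, Notch signaling and hormone receptors fall on both sides.

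The genes most like each member were sought among 13958 genes with a group mean of at least 1 RPKM, by Pearson correlation of log2(RPKM + 0.1) over the 10 group means, which share libraries and depth. For Chgb these were Hoxaas3 (r = 0.988), Slc12a8 (0.983) and Ehhadh (0.981). For Sct they were Mptx2 (0.996), Mptx1 (0.983) and Tfcp2l1 (0.978). For Gcg they were Bche (0.979), Tmigd1 (0.951) and Maoa (0.949), and for Chga Abhd11os (0.977), Tmem94 (0.965) and Gm6939 (0.908). For Cck they were Nr2f2 (0.991), Dll1 (0.990) and Cpne8 (0.989), each with a higher mean in healthy stromal cells than in the other 3 groups of sorted CD45- cells. The other members had no group mean of 1 RPKM.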

How the data were processed

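RNA of sorted cells from mouse colon, colon tumors and blood was amplified and sequenced. The submitters' processing notes name mm10 and Bowtie2, and the authors deposited expected counts per Ensembl gene, which are not normalized. The authors also deposited RPKM values, which are the same counts multiplied by 1 constant per gene and 1 per library; relative to library totals that library constant ranged from 0.635 to 1.54, so RPKM and TMM-scaled fits can differ in size. The annotation release, treatment of multi-mapping reads and use of strand are not given in the sources used here, so genes with overlapping exons are uncertain. Totals were 10717873 to 38002939 counts per library, and intervals from counts cover counting error only.

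Expected counts were rounded and fitted for the groups compared with edgeR 4.0.16 (filterByExpr, TMM, robust quasi-likelihood test, R 4.3.3); SE is the absolute log2 fold change divided by the root of F. Permutation tests, in Python 3.11.15, were exact and 2-sided. Fits were tested on simulated counts. Alternatives were DESeq2 1.42.0, limma-voom (limma 3.58.1), no filter, a mean of at least 10 counts, RLE factors, all 40 libraries in 1 model, no mitochondrial genes, no fold threshold, blocks and left-out libraries; 5 were chosen after seeing the data (both healthy libraries numbered 4 left out in 2 comparisons, both epithelial libraries numbered 4 left out, the title number as a block, and no value added in the ratios).

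The members and the lists were chosen with earlier results of these data known. Besides the members, the text names defining markers and, for each list, up to 4 called genes with the largest change between tumor and healthy epithelial cells, or, where none was called, the 2 with the highest mean RPKM there. Likeness covered members with a group mean of at least 1 RPKM. Xist was named outside this rule, after its values were seen. Promoter windows came from RefSeq for GRCm38.p6, with all 10 members matched. A floor of 3 counts was used. The sample titles give each replicate of a group a different animal or pool.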

Additional observations from a re-analysis of the deposited data

Results flagged for a closer look

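A library far from the other 3 of its group was found in 11 of 41 member and group combinations. Several of these groups held 0 or few counts in their other libraries, so no chance rate is set beside this number. In healthy epithelial cells this was Insl5 in replicate 3 (0.188 RPKM, the others at 0), and in tumor epithelial cells Chgb in replicate 3 (1.49 RPKM). Healthy stromal replicate 4 stood apart for Chgb (3.13 RPKM), Gcg (2.96 RPKM), Pyy (1.38 RPKM) and Neurod1 (0.122 RPKM), and tumor stromal replicate 1 for Pyy (0.406 RPKM). Tumor neutrophil replicate 1 stood apart for Gcg (2.17 RPKM), Sct (0.111 RPKM, 3 counts), Chga (0.0560 RPKM, 6 counts) and Chgb (0.0267 RPKM, 4 counts).

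The change from healthy to tumor differed between epithelial and stromal cells, by the interaction term of the edgeR fit, for Tph1 (-5.31 on the log2 scale, adjusted p = 0.00578) and Sct (-5.05, adjusted p = 0.0163).

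Blood cells, which entered no fitted comparison here, held some members above every library of the same cell type from healthy blood. These were Chga in tumor-bearing blood monocyte replicates 1 (0.561 RPKM) and 3 (0.213 RPKM), beside at most 0.0215 RPKM in healthy blood monocytes, Cck in tumor-bearing blood monocyte replicate 1 (0.0739 RPKM) and Neurod1 in tumor-bearing blood neutrophil replicate 3 (0.0360 RPKM), the last 2 at 4 counts each. Healthy blood libraries also held members above every tumor-bearing blood library of the same cell type. Among them were Chgb in healthy blood monocyte replicate 1 (0.109 RPKM, 21 counts) and Chga in healthy blood neutrophil replicate 4 (0.186 RPKM, 25 counts). Gcg in healthy blood neutrophil replicate 3 (0.0933 RPKM, 12 counts) was another. The causes of these values, in either direction, were not tested.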

How the results depend on the processing

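Members called in tumor against healthy epithelial cells numbered 5 of 6 tested in the reported fit and 4 of 7 with all 40 libraries in 1 model. They numbered 6 of 10 without a filter, 6 of 8 with a mean of at least 10 counts, and 5 to 6 with each library left out. Of all genes, 2196 to 3632 were called over the alternatives. All 6 tested members kept a negative sign under every alternative run, and only Sct lost its call, with all 40 libraries. Chga, Chgb, Gcg, Tph1 and Neurod1 did not overlap in RPKM between tumor and healthy epithelial cells with any single library left out. Sct joined them on TMM-scaled RPKM and without healthy replicate 4 or tumor replicate 3. The share of all genes that separate in this way was not computed, so no result about the members is read from it. In healthy epithelial against stromal cells 7 members were called by limma-voom (6 higher and 1 lower) in place of 4, and 3 to 6 with each library left out. In stromal cells 0 to 1 were called with each library left out, and Chgb turned positive with limma-voom (2.88), the replicate block (4.86) and left-out libraries (-1.06 to 6.75); 2707 genes in all were called by DESeq2 and 462 with the block, in place of 1602. Without tumor stromal replicates 1 and 2, 1 member was called between tumor epithelial and stromal cells and 4471 genes in all, in place of 0 and 5. Over the other alternatives of that comparison the count of all genes moved between 0 (limma-voom), 1246 (DESeq2), 1739 (all 40 libraries), 115 (replicate block) and 2232 (title number as block). The title block rests on the 2 animals with both libraries only. There Tph1 turned negative with the replicate block (-0.033), the title block (-0.58) and left-out libraries (-0.13 to 0.52), as did Chga with left-out libraries (-0.40 to 0.61). In the interaction, 1 member was called with all 40 libraries and 1 without tumor stromal replicates 1 and 2, and 2 to 4 with each library left out. There Gcg changed sign without tumor stromal replicates 1 and 2 (1.33) and over left-out libraries (-2.22 to 0.32), Pyy likewise (4.07, and -7.71 to 4.03), and Cck with the replicate block (0.089) and over left-out libraries (-0.77 to 0.55). The Chgb to Chga difference ranged from -1.09 to -0.65 with each library left out, where an exact permutation test of 3 against 4 libraries cannot go below p = 0.0571. With nothing added to either value it was 0.45 (exact permutation p = 0.714). The Gcg to Chga difference was -1.05 with 1 added in place of 0.1 (exact permutation p = 0.0286) and 0.049 with Chgb as the reference. The Sct to Chga difference was -0.61 with 1 added and ranged from -0.38 to 0.55 with each library left out. The cause of these moves was not tested. No healthy stromal library exceeded 20% of the epithelial list, so the planned fit without such libraries was not run. Within the fitted comparisons, replicate numbers named different animals except for replicate 4 of the healthy epithelial and stromal groups. Same-numbered libraries there correlated between -0.24 and 0.16 in their deviations from the group means. Tumor myeloid and blood libraries shared some animals with each other or with the fitted groups, and this sharing was not modelled. The replicate block changed no member's call in the comparisons of tumor with healthy cells, and in healthy epithelial against stromal cells it called 6 members. Depth limits Neurog3, Insl5 and Pyy, with under 10 counts in most libraries.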

Other observations

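Of the genes called higher in tumor epithelial cells, Cadps and Slc18a1 were also called higher in tumor stromal cells. Cadps, which primes dense-core granules for release, was called higher in tumor than in healthy stromal cells (log2 fold change 6.05, SE 0.92, edgeR adjusted p = 0.00742), at 3.91, 4.29, 2.40 and 0.546 RPKM in tumor stromal and 0.0112 to 0.117 RPKM in healthy stromal replicates. It was also at 0.520 to 1.66 RPKM in the 4 tumor neutrophil libraries, beside no more than 0.0128 RPKM in any blood neutrophil library. Slc18a1, the monoamine transporter, was called higher in tumor stromal cells as well (7.08, SE 1.33, adjusted p = 0.0151), at 0.906, 1.78, 0.138 and 0.0446 RPKM. The epithelial list stood at 97.0%, 46.8%, 19.9% and 12.1% in the same 4 libraries, so both genes were higher in the 2 libraries with the most epithelial transcripts. Glp1r did not pass the filter in that comparison and was at 0.662, 1.44, 0.0393 and 0.0424 RPKM in tumor stromal replicates 1 to 4 and reached 0.679 RPKM in tumor neutrophil replicate 3, where the epithelial list was at 15.9%. The neutrophil values, and the part of epithelial transcripts in these levels, were not tested.

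Among the receptor genes of these hormones, 4 of 7 tested were called lower in healthy epithelial than in healthy stromal cells and 1 higher, with a median log2 difference of -4.88 beside -0.14 over all genes tested, of which 19.4% were called lower and 11.5% higher. Of the Notch genes 6 of 9 were called lower in healthy epithelial than in stromal cells and 0 higher, against the same shares over all genes. Hey1 had a mean of 0.0839 RPKM in healthy and 2.69 RPKM in tumor epithelial cells, and of 7.76 RPKM in healthy and 4.63 RPKM in tumor stromal cells. The stromal difference did not pass the test (-0.41, adjusted p = 0.592), and the difference between the compartments did (4.68, SE 0.81, adjusted p = 0.00139).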
